A study of Mus musculus with 12 samples.

Results

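Genes of the T-cell receptor complex and of T-cell identity, 9 in all, were followed through mouse bone marrow after myocardial infarction and EMPA: Cd3d, Cd3e, Cd3g, Cd4, Cd8a, Cd8b1, Lck, Lat and Tcf7. They were chosen by symbol. Each of the 9 symbols stood on 1 row of the deposited tables, which list 53801 genes, and all 9 were among the 15119 genes tested. RNA from whole marrow of C57BL/6N mice was sequenced in 12 libraries, 3 in each of 4 groups. MI-E mice were infarcted by ligation of the LAD artery and given EMPA, and MI mice were infarcted without it. Sham-E mice had the sham operation and EMPA, and Sham mice had the sham operation alone. The marrow was not sorted, no genotype other than the strain was stated, and no source used here gives the age of the mice, the EMPA dose or how long after the operation marrow was taken. Nothing states that the 3 libraries of a group came from separate mice, so p-values measure the spread between these samples, which may be technical.

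A T cell reads antigen through 2 variable receptor chains, which cannot signal by themselves. They reach the surface only with the invariant CD3 chains, whose cytoplasmic tails carry the activation motifs. The coreceptors bind the presenting molecule and bring the kinase Lck with them. CD4, carried by helper cells, binds class II molecules. CD8, made of an alpha and a beta chain and carried by cytotoxic cells, binds class I molecules. Lck phosphorylates the CD3 tails, and the adaptor LAT then gathers the enzymes that carry the signal inward. TCF-1, the product of Tcf7, is a DNA-binding factor needed to make T cells in the thymus and kept on in naive and memory cells. Marrow holds few T cells, mostly mature ones that recirculate. Several of these genes are also used elsewhere: Cd4 in some dendritic cells and macrophages, Cd8a in dendritic cells, Lat in megakaryocytes and mast cells, Lck in natural killer cells, and Tcf7 in innate lymphoid cells.

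The CD3 genes share a cluster on chromosome 9 (mm10). Cd3g (ENSMUSG00000002033) lies on the minus strand from 44969572 to 44980431, Cd3d (ENSMUSG00000032094) on the plus strand from 44981786 to 44987339, and Cd3e (ENSMUSG00000032093) on the minus strand from 44998740 to 45009627. Cd3g and Cd3d point away from each other with 1355 bases between their starts. Lck (ENSMUSG00000000409) lies on chromosome 4, minus strand, from 129548344 to 129573641, and has 2 starts in the RefSeq table. The windows of 250 bases before these starts are shown because the CD3 genes are neighbours that are transcribed together in T cells, and because Lck was the member with the smallest p in MI against Sham and in MI-E against MI. They were taken from RefSeq (GRCm38.p6) at chr9:44981536-44981785 on the plus strand for Cd3d, and on the minus strand at chr9:44980432-44980681 for Cd3g, chr9:45009612-45009861 for Cd3e, chr4:129573642-129573891 for the upstream start of Lck and chr4:129558373-129558622 for the downstream start. Capitals mark matches, on either strand, to the core letters of 4 motifs of factors that T cells use: AGGAAG for ETS factors, TGTGGT for RUNX factors, CTTTGA for TCF and LEF factors, and CANCTG for E-box factors.
Cd3d: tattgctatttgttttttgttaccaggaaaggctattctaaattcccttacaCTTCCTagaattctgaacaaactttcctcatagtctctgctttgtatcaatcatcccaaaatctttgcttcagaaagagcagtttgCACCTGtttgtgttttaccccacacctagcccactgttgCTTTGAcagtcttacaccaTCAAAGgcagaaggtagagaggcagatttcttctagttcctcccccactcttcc
Cd3g: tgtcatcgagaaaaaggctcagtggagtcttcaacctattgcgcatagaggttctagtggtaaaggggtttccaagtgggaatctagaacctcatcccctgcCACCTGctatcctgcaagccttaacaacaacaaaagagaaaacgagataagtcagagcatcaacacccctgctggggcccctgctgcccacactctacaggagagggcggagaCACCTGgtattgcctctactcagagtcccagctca
Cd3e: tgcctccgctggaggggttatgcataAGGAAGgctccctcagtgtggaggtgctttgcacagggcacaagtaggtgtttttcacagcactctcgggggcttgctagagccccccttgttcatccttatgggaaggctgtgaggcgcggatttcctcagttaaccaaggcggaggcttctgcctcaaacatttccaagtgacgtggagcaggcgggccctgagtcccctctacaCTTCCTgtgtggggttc
Lck upstream start: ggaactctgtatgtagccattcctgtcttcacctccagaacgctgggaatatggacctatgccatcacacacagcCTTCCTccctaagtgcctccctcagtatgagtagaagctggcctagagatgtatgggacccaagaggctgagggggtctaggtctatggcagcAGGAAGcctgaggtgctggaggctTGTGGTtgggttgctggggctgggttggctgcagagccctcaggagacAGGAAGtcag
Lck downstream start: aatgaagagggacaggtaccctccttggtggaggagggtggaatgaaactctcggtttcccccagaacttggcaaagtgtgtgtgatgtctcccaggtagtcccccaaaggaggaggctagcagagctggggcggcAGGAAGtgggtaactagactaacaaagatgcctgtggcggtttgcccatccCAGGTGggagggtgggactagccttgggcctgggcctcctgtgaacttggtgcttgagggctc

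In the Cd3d window the ETS letters lay 198 bases before the start, the E-box letters 112 bases before it and the TCF letters 73 and 54 bases before it. Cd3g held 2 E-box matches (148 and 35 bases) and Cd3e 2 ETS matches (224 and 17 bases). The upstream Lck start had ETS letters at 175, 82 and 10 bases and the RUNX letters at 58 bases, and the downstream start had ETS letters at 114 bases and E-box letters at 63 bases. Windows were found in the RefSeq table for 7 of the 9 members, 9 windows in all, and not for Cd4 and Cd8b1. ETS letters were in 5 of these 9 windows, E-box letters in 5, RUNX letters in 1 and TCF letters in 1. Of all 32851 windows of this length in the table, 29.5% held the ETS letters, 44.8% the E-box letters, 14.1% the RUNX letters and 13.8% the TCF letters. No 2 matches in the members' windows overlapped. A match is a description of letters and not a site of binding.

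The other members lie apart or in pairs (mm10). Cd8b1 (ENSMUSG00000053044) and Cd8a (ENSMUSG00000053977) follow each other on the plus strand of chromosome 6, from 71322788 to 71337494 and from 71373427 to 71379173, with 35933 bases between the end of Cd8b1 and the start of Cd8a. Cd4 (ENSMUSG00000023274) lies on the minus strand of the same chromosome from 124864692 to 124888221. Lat (ENSMUSG00000030742) lies on chromosome 7 from 126363824 to 126369570 and Tcf7 (ENSMUSG00000000782) on chromosome 11 from 52252371 to 52283014, both on the minus strand. Small parts of 3 members overlap another gene's exons, 3.31% of the exon bases of Cd3e (Gm48719, opposite strand), 2.71% of Lat (Mir7058) and 0.854% of Lck (Mir8119).

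Libraries held 21175087 to 24606783 counts, and the members had 60 to 636 counts in a library. Levels are given in CPM, the counts relative to the TMM-scaled library total. Correlations of log2 CPM within a group, across genes, were at least 0.981 in MI-E and at least 0.985 in Sham, but went down to 0.947 in MI and 0.945 in Sham-E. Mean insert length, recovered from the ratio of counts to TPM, was 280.1 to 282.7 bp in MI-E, 263.1 to 265.2 bp in MI, 271.1 to 280.2 bp in Sham-E and 284.1 to 286.9 bp in Sham. MI libraries were the shortest and did not overlap any other group, and Sham-E libraries were all shorter than Sham libraries. Insert length and group therefore cannot be told apart in any comparison described here except that of MI-E with Sham-E. Mitochondrial genes also took a higher share of the counts in MI (2.23 to 3.58%) than in the other groups (1.33 to 1.87%). T-cell RNA itself was present in every library: of 12 T-cell markers, 11 were in the tables and all 11 were tested, with 32 to 243 counts each per library. The constant regions of the receptor chains, Trac (3.57 to 10.2 CPM), Trbc1 (4.24 to 10.4 CPM), Trbc2 (3.85 to 10.4 CPM) and Trdc (1.59 to 3.78 CPM), were detected in all 12 libraries. Ptcra, the pre-receptor chain of immature thymocytes, had 4 counts over all 12 libraries together and was at 0 in 8 of them. In whole marrow, fewer T cells and less RNA per T cell cannot be told apart.

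Per length, Lck and Lat were the most abundant members. Their median TPM (the authors' values, scaled by transcript length, which allow levels of different genes to be compared) over the 12 libraries was 15.6 for Lck and 15.2 for Lat. Tcf7 followed at 10.3 TPM. Cd8b1, Cd3g, Cd3e, Cd3d, Cd8a and Cd4 had medians of 7.95, 7.87, 6.71, 6.17, 5.62 and 5.15 TPM. These 6 overlapped widely across libraries, from 2.72 TPM for Cd4 in Sham-E 1 to 14.4 TPM for Cd3e in Sham-E 3. Within a member, the highest library exceeded the lowest by 2.01 times (Cd8a) to 3.3 times (Cd8b1) in CPM.

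**Figure D1:**
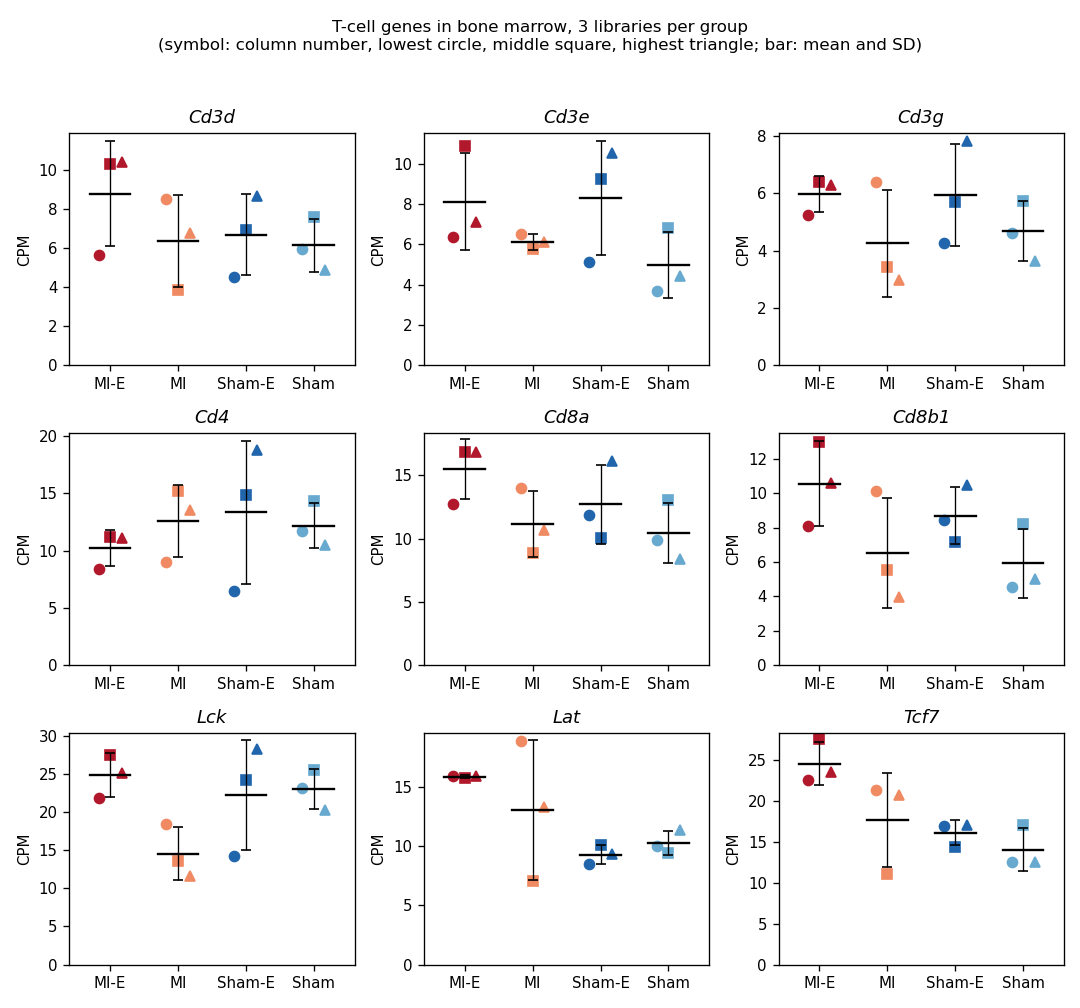
Levels of the 9 members in CPM (linear axis from 0), 1 panel a gene, with each library as a point and the group mean and SD as a bar, in the order MI-E, MI, Sham-E, Sham. Lck is lower in all 3 MI libraries (11.6 to 18.5 CPM) than in any MI-E (21.8 to 27.5) or Sham library (20.3 to 25.5), while the points of most other members overlap between groups.

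The 3 CD3 chains varied as much within groups as between them. Cd3d, the delta chain, had 5.67, 10.3 and 10.4 CPM in MI-E, 8.52, 3.87 and 6.76 in MI, 4.50, 6.91 and 8.66 CPM in Sham-E, and 5.97, 7.59 and 4.88 CPM in Sham. Cd3e, the epsilon chain, which pairs with either of the other two, had 6.39, 10.9 and 7.10 CPM in MI-E, 6.51, 5.75 and 6.12 in MI, 5.10, 9.24 and 10.53 CPM in Sham-E, and 3.67, 6.81 and 4.45 CPM in Sham. For both genes every pair of groups next to each other in mean level overlapped. Cd3g, the gamma chain, was lowest in MI 3 and MI 2 (2.96 and 3.42 CPM), but MI 1 had 6.38 CPM. It had 5.24, 6.39 and 6.28 CPM in MI-E, 4.28, 5.71 and 7.82 CPM in Sham-E, and 4.61, 5.75 and 3.65 CPM in Sham.

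Group means of the CD3 chains followed the same order only in part. Cd3d averaged 8.79 ± 2.71 CPM in MI-E, 6.38 ± 2.35 CPM in MI, 6.69 ± 2.09 CPM in Sham-E and 6.15 ± 1.36 CPM in Sham (SD, n = 3 each). Cd3e averaged 8.12 ± 2.41, 6.13 ± 0.38, 8.29 ± 2.84 and 4.98 ± 1.64 CPM in MI-E, MI, Sham-E and Sham, and Cd3g 5.97 ± 0.63, 4.25 ± 1.86, 5.94 ± 1.78 and 4.67 ± 1.05 CPM in the same groups (SD, n = 3 each). The EMPA groups had the upper means of all 3 chains, and Sham had the lowest mean for Cd3d and Cd3e, MI for Cd3g. None of the differences between groups passed the adjusted test given with the comparisons.

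Both CD8 chains were highest on average in MI-E, whereas Cd4 was lowest there. Cd8a had 12.7, 16.8 and 16.9 CPM in MI-E, 14.0, 8.82 and 10.7 in MI, 11.9, 10.02 and 16.2 CPM in Sham-E, and 9.85, 13.1 and 8.38 CPM in Sham. Cd8b1, the chain that marks conventional cytotoxic T cells, had 8.08, 13.0 and 10.6 CPM in MI-E, 10.1, 5.55 and 3.95 in MI, 8.43, 7.18 and 10.49 CPM in Sham-E, and 4.52, 8.21 and 5.003 CPM in Sham. MI 1 again stood with the MI-E libraries for both chains. Cd4 had 8.37, 11.2 and 11.1 CPM in MI-E, 9.03, 15.2 and 13.6 in MI, 6.49, 14.8 and 18.8 CPM in Sham-E, and 11.7, 14.3 and 10.48 CPM in Sham. Its lowest value in the series was in Sham-E 1 and its highest in Sham-E 3, so the range of that group alone covered all others.

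The balance of the coreceptors was tight in MI-E. The ratio of Cd4 to Cd8a in TPM was 0.64, 0.59 and 0.63 in MI-E, 0.58, 1.58 and 1.13 in MI, 0.48, 1.29 and 1.23 in Sham-E, and 1.34, 1.198 and 1.17 in Sham. All MI-E libraries were below all Sham libraries, but MI 1 and Sham-E 1 were as low as MI-E, so that infarction or EMPA alone did not separate the values. In CPM the 3 MI-E ratios were 0.658, 0.666 and 0.658. The ratio of Cd8b1 to Cd8a in TPM averaged 1.42 ± 0.17 in MI-E, 1.21 ± 0.39 in MI, 1.43 ± 0.04 in Sham-E and 1.14 ± 0.15 in Sham (SD, n = 3 each), with the low value of the series, 0.76, in MI 3. Cells other than T cells can hold both coreceptors. Markers of plasmacytoid dendritic cells summed to 495 to 591 CPM in MI-E, 420 to 564 CPM in MI, 394 to 730 CPM in Sham-E and 615 to 749 CPM in Sham. Those of monocytes and macrophages summed to 1803 to 2201, 2120 to 2403, 1708 to 2418 and 1586 to 1894 CPM in these groups, and those of conventional dendritic cells to 1641 to 2467, 1409 to 2607, 860 to 2440 and 1879 to 2287 CPM. No tested marker of these lists was at 0. Their part in the Cd4 and Cd8a values was not tested. The ratios were chosen after their values were seen and carry no test.

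Lck was the 1 member whose MI libraries lay apart from both MI-E and Sham. It had 21.8, 27.5 and 25.2 CPM in MI-E, 18.5, 13.5 and 11.6 in MI, 14.2, 24.2 and 28.3 CPM in Sham-E, and 23.2, 25.5 and 20.3 CPM in Sham. Libraries of MI did not overlap those of Sham for 27.3% of all genes, nor those of MI-E for 21.7%. For Lck, every MI library was below every MI-E and every Sham library, and Sham-E 1 lay among the MI values. The means were 24.8 ± 2.87 CPM in MI-E, 14.6 ± 3.53 CPM in MI, 22.2 ± 7.25 CPM in Sham-E and 23.0 ± 2.62 CPM in Sham (SD, n = 3 each). The authors' TPM also had the lowest values in MI, with 15.0 to 18.6 TPM in MI-E, 7.68 to 12.8 TPM in MI, 11.3 to 24.7 TPM in Sham-E and 13.8 to 24.98 TPM in Sham, and again no overlap of MI with MI-E or Sham. Markers of natural killer cells, which also use Lck, summed to 118 to 128 CPM in MI-E, 93.2 to 132 CPM in MI, 151 to 167 CPM in Sham-E and 135 to 150 CPM in Sham, and their part in the Lck values was not tested. Mature B-cell markers showed the same order as Lck in these comparisons: all 8 were lower in MI than in Sham and all 8 were higher in MI-E than in MI. They summed to 1536 to 1948 CPM in MI-E, 1193 to 1551 CPM in MI, 1118 to 2249 CPM in Sham-E and 1824 to 2588 CPM in Sham, and whether the B-cell share bears on Lck was not tested.

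Lat, the adaptor, was even across the MI-E libraries and uneven across the MI libraries. It had 15.9, 15.7 and 15.9 CPM in MI-E, 18.9, 7.04 and 13.3 in MI, 8.48, 10.1 and 9.29 CPM in Sham-E, and 9.98, 9.44 and 11.4 CPM in Sham. MI-E and Sham-E libraries did not overlap for 23.9% of all genes. For Lat, all MI-E libraries were above all Sham-E and Sham libraries, and MI 1 was above them all. Megakaryocyte and platelet markers were also highest in MI-E: their 9 genes summed to 200.04 to 239 CPM in MI-E, 81.6 to 166 CPM in MI, 66.3 to 113 CPM in Sham-E and 67.6 to 173 CPM in Sham. All 9 of these markers were higher in MI-E than in Sham-E, where their median log2 fold change was 1.10, but 3 of 9 were higher in MI than in Sham (median −0.15), where Lat was at 0.35, and none was at 0 in a group. Mast cell and basophil markers summed to 455 to 543 CPM in MI-E, 572 to 751 CPM in MI, 496 to 782 CPM in Sham-E and 648 to 724 CPM in Sham. The part of either cell type in the Lat values was not tested.

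Tcf7 was highest in MI-E. It had 22.5, 27.4 and 23.5 CPM in MI-E, 21.3, 11.1 and 20.6 in MI, 16.9, 14.3 and 17.02 CPM in Sham-E, and 12.5, 17.03 and 12.5 CPM in Sham. Libraries of MI-E and MI did not overlap for 21.7% of all genes, and those of MI-E and Sham-E for 23.9%. The share with MI-E above all other groups was not counted. For Tcf7, every MI-E library was above every other library of the series. The means were 24.5 ± 2.60 CPM in MI-E, 17.7 ± 5.73 CPM in MI, 16.1 ± 1.55 CPM in Sham-E and 14.0 ± 2.60 CPM in Sham (SD, n = 3 each). Markers of innate lymphoid cells, which also use Tcf7, summed to 93 to 121 CPM in MI-E, 82 to 146 CPM in MI, 96 to 130 CPM in Sham-E and 124 to 139 CPM in Sham, and their part in the Tcf7 values was not tested.

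The comparison of MI with Sham addresses what infarction did to these genes. Lck was lower in MI, with a log2 fold change of −0.66 ± 0.24 (SE; 95% interval −1.18 to −0.14; edgeR unadjusted p = 0.0176, adjusted p = 0.163), and did not pass. The 3 CD3 chains had log2 fold changes of 0.06 ± 0.34 (Cd3d), 0.30 ± 0.31 (Cd3e) and −0.13 ± 0.32 (Cd3g), and the coreceptors 0.05 ± 0.32 (Cd4), 0.10 ± 0.24 (Cd8a) and 0.15 ± 0.34 (Cd8b1). Lat was at 0.35 ± 0.27 and Tcf7 at 0.33 ± 0.23. For these 8 genes the adjusted p of edgeR lay between 0.443 and 0.953. The 95% intervals reached from −0.69 to 0.80 for Cd3d and from −0.60 to 0.90 for Cd8b1, so that these libraries do not tell apart no difference from one of about 0.8 on the log2 scale for either gene.

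By edgeR, 0 of the 9 members passed an adjusted p of 0.05 between MI and Sham, where 0.417% of all tested genes did, and 1 member had an unadjusted p under 0.05, where 19.5% of all genes did. Lck was also the 1 member whose MI and Sham libraries did not overlap, which held for 27.3% of all genes. DESeq2 and limma-voom also called 0 members. The median log2 fold change was 0.10 over the members and 0.02 over all genes. Its sign turned on single libraries: it was −0.096 without MI 1, −0.056 without Sham 4, 0.0098 without Sham 1, 0.25 without MI 2 and 0.27 without Sham 3. Directions also depended on the scaling and the unit: 7 of 9 members were positive with TMM and 4 with the library total alone, which moved the median of all genes to −0.10. Limma on TPM, which differs in length scaling, total scaling and test together, had 2 of 9 positive. Lck was negative in each. With Sham-E 1 left out of the common fit, Lck passed (−0.66 ± 0.18, edgeR adjusted p = 0.044), together with 7.9% of all genes.

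The comparison of MI-E with MI addresses what EMPA did in the infarcted mice. Of the 9 members, 8 were higher in MI-E and Cd4 was lower, and none passed. Lck differed most, by a log2 fold change of 0.77 ± 0.24 (SE; 95% interval 0.24 to 1.29; edgeR unadjusted p = 0.00748, adjusted p = 0.159). Cd8b1 (0.69 ± 0.34), Cd3g (0.48 ± 0.32), Tcf7 (0.47 ± 0.23), Cd8a (0.47 ± 0.24), Cd3d (0.46 ± 0.34), Cd3e (0.40 ± 0.31) and Lat (0.28 ± 0.27) were higher and Cd4 was at −0.30 ± 0.33, with edgeR adjusted p between 0.307 and 0.671. The median over the members was 0.47, against −0.02 over all genes, and 8 of 9 were positive with TMM, with the library total alone and on the TPM scale.

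EdgeR, DESeq2 and limma-voom each called 0 of the 9 members between MI-E and MI. The background by edgeR was 0.00661% of all genes at the adjusted threshold and 17.4% at an unadjusted p under 0.05, which 1 member (Lck) met. Libraries of MI-E and MI did not overlap for Lck and Tcf7, 2 of 9 members (22.2%), close to the 21.7% of all genes. MI 1 was the highest MI library for 8 of the 9 members, and the differences from MI-E were larger without it. Without MI 1, the median over the members was 0.67 with 8 of 9 still positive, Lck passed (0.98 ± 0.26, edgeR adjusted p = 0.049), Cd8b1 was at 1.15 ± 0.33 (adjusted p = 0.062) and Cd3g at 0.90 ± 0.31 (adjusted p = 0.103), and 6 of 9 members had an unadjusted p under 0.05. Of all genes, 24.1% then had an unadjusted p under 0.05 and 6.39% passed the adjusted threshold.

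**Figure D2:**
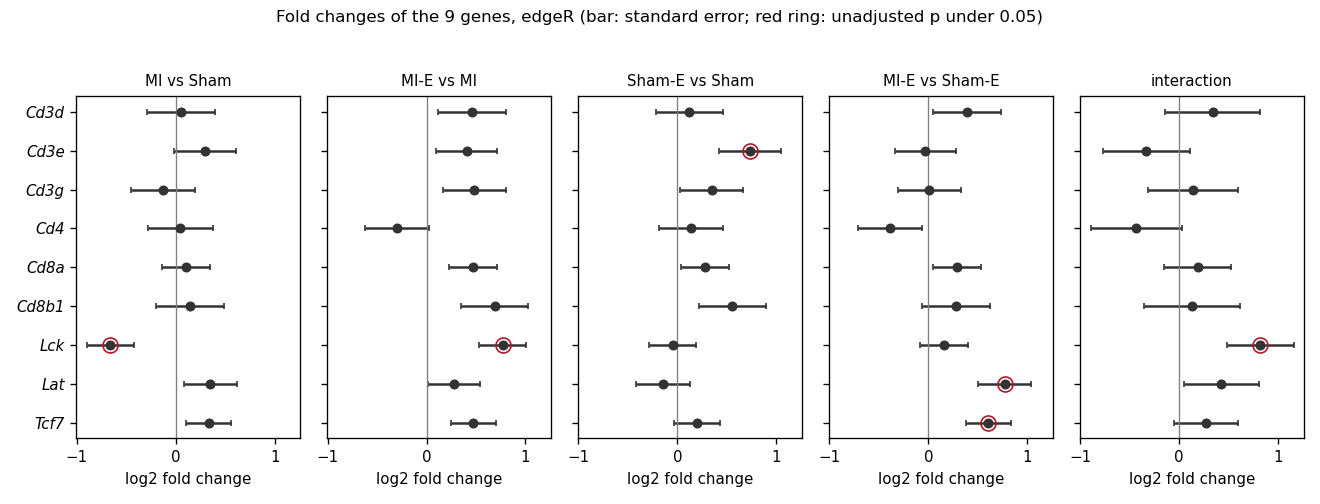
Log2 fold changes (edgeR, x axis) of the 9 members in each of the 5 comparisons. Bars show the SE, the grey line marks 0, and red rings mark an edgeR unadjusted p under 0.05. The 95% intervals are not drawn. Of the 45 intervals, those of Lck in MI vs Sham (−1.18 to −0.14), MI-E vs MI (0.24 to 1.29) and the interaction (0.08 to 1.55), Cd3e in Sham-E vs Sham (0.06 to 1.42), and Lat (0.19 to 1.36) and Tcf7 (0.11 to 1.10) in MI-E vs Sham-E exclude 0, without adjustment for the number of genes.

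The comparison of Sham-E with Sham addresses EMPA without infarction. Cd3e was higher in Sham-E (log2 fold change 0.74 ± 0.31, 95% interval 0.06 to 1.42; edgeR unadjusted p = 0.036), but the adjusted p was 1.00, as for all 9 members. Cd8b1 was at 0.56 ± 0.34, Cd3g at 0.35 ± 0.32 and Cd8a at 0.28 ± 0.24. Lck (−0.05 ± 0.24) and Lat (−0.15 ± 0.27) were the 2 members below 0. No member's libraries were separate between Sham-E and Sham, where 8.98% of all genes were. By edgeR 0 members were called and 1 had an unadjusted p under 0.05, against 0% and 1.9% of all genes, and DESeq2 and limma-voom called 0. The median was 0.20 over the members and 0.01 over all genes. It depended on single libraries, at 0.071 without Sham-E 3, 0.11 without Sham 1 or without Sham 4, 0.34 without Sham-E 1 and 0.35 without Sham 3.

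The comparison of MI-E with Sham-E addresses infarction under EMPA. Lat (log2 fold change 0.77 ± 0.27, 95% interval 0.19 to 1.36; edgeR unadjusted p = 0.0135, adjusted p = 0.286) and Tcf7 (0.61 ± 0.23, 0.11 to 1.10; unadjusted p = 0.0203, adjusted p = 0.301) were higher in MI-E with no overlap of libraries, and neither passed. No overlap was seen in 2 of 9 members (22.2%), against 23.9% of all genes. The CD3 chains were at 0.39 ± 0.34 (Cd3d), −0.03 ± 0.31 (Cd3e) and 0.01 ± 0.32 (Cd3g), Cd4 at −0.39 ± 0.33, Cd8a at 0.29 ± 0.24, Cd8b1 at 0.28 ± 0.34 and Lck at 0.16 ± 0.24. By edgeR 0 members were called, against 0% of all genes, and 2 had an unadjusted p under 0.05, against 13.4% of all genes. DESeq2 and limma-voom called 0. Lck therefore had −0.66 for infarction without EMPA and 0.16 with it, the latter being −0.08 with Sham-E 1 left out.

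That difference was tested as the interaction, in which the effect of EMPA in sham-operated mice is subtracted from its effect in infarcted mice. Lck had the largest interaction among the members, 0.82 ± 0.34 on the log2 scale (95% interval 0.08 to 1.55, edgeR unadjusted p = 0.0321, adjusted p = 0.337), and did not pass. With 1 library left out it ran from 0.58 to 1.03. The low end was without Sham-E 1 (edgeR unadjusted p = 0.0512) and the high end without MI 1. The other 8 members lay between −0.43 (Cd4) and 0.42 (Lat), with intervals that include 0. By edgeR 0 members were called, where 0.00661% of all genes were, and 1 had an unadjusted p under 0.05, where 13.5% of all genes did. DESeq2 and limma-voom called 0 here as well, and over all 45 tests of members their smallest adjusted p was 0.069 and 0.175. The comparisons share libraries, so they are not independent of each other.

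**Figure D3:**
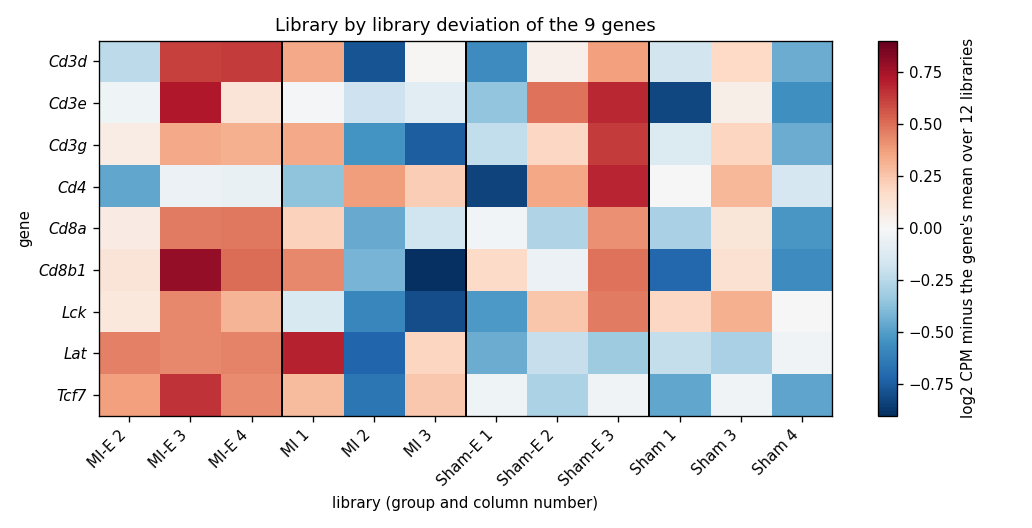
Log2 CPM of each member (rows) in each library (columns, grouped as MI-E, MI, Sham-E, Sham) as the difference from that member's mean over the 12 libraries, by colour. Single libraries run high or low across most rows: MI 1 is the highest of its group for 8 members, Sham-E 3 and Sham 3 for 8 each, and MI-E 2 is the lowest of its group for 8.

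Most members ran high or low in the same libraries, Cd4 less so. Pearson r of log2 CPM over the 12 libraries, as a description, was 0.66 to 0.74 among the CD3 chains and 0.86 between Cd8a and Cd8b1. Cd4 was at 0.42 with Cd3e, 0.26 with Lck, 0.23 with Cd3d and 0.13 with Cd3g. With the other members it was negative, −0.035 with Cd8a, −0.14 with Cd8b1, −0.37 with Lat and −0.30 with Tcf7. Lck was at 0.21 with Lat and 0.23 with Tcf7. The CPM of the 9 members summed to 107, 139 and 127 in MI-E, 113, 74.2 and 89.6 in MI, 80.3, 102 and 127 in Sham-E, and 86.0, 108 and 81.0 in Sham. Within each group, 1 library was at the top, or at the bottom, for 8 of the 9 members. In MI-E, MI-E 2 was lowest for every member except Lat. In MI, MI 1 was highest for every member except Cd4, for which it was lowest. Sham-E 3 was highest in its group for every member except Lat, and so was Sham 3. Summed CPM of the 11 T-cell markers, which include Cd3d, Cd3e and Cd3g, spanned 59.3 to 86.6 in MI-E and 44.0 to 67.3 in MI. It spanned 47.3 to 76.6 in Sham-E and 42.6 to 67.7 in Sham. The groups overlapped in this sum, which is not separate from the CD3 members.

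Lck set against the CD3 chains was highest in Sham. The ratio of Lck to the sum of Cd3d, Cd3e and Cd3g in CPM was 1.10 ± 0.14 in MI-E (1.00 to 1.26), 0.88 ± 0.15 in MI (0.74 to 1.04), 1.06 ± 0.04 in Sham-E (1.02 to 1.11) and 1.49 ± 0.19 in Sham (1.27 to 1.63; SD, n = 3 each). Every Sham library was above every other library, but Sham 3 (1.267) only just above MI-E 2 (1.259). The ratio of Lat to the same sum averaged 0.72 ± 0.18 in MI-E, 0.75 ± 0.19 in MI, 0.47 ± 0.13 in Sham-E and 0.68 ± 0.20 in Sham, with overlap among all 4 groups. These ratios were also chosen after their values were seen.

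**Figure D4:**
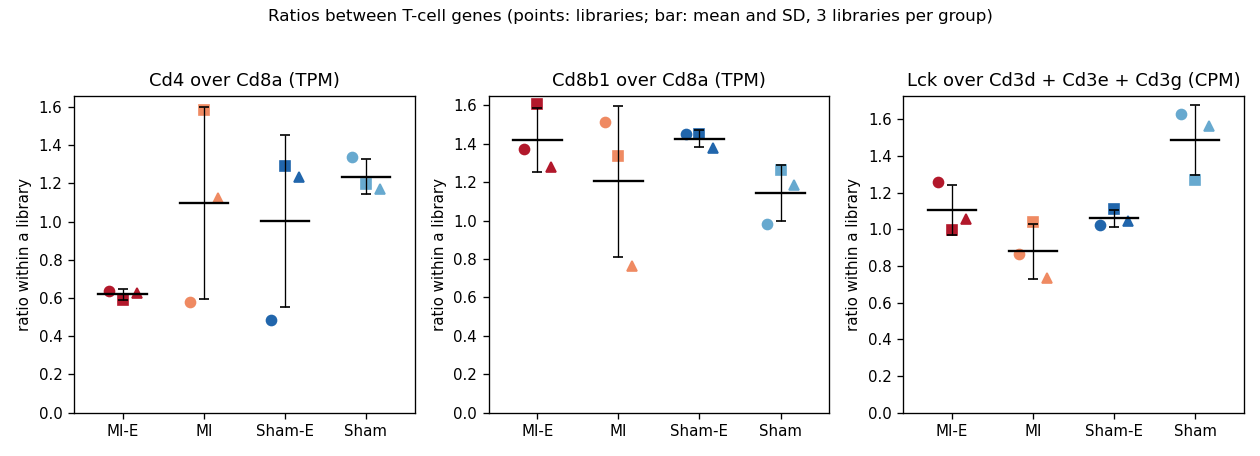
Ratios between members by library (points) with the group mean and SD, in the order MI-E, MI, Sham-E, Sham, on linear axes from 0. Cd4 over Cd8a (TPM) lies at 0.59 to 0.64 in MI-E and 1.17 to 1.34 in Sham, and Lck over the CD3 sum (CPM) is highest in Sham, with Sham 3 (1.267) close to MI-E 2 (1.259).

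The deposited TPM and counts did not rank libraries alike for every member, because the effective length used for a gene differed between libraries. Dividing one table by the other gave this length. For Cd8b1, which has 1 annotated transcript (1483 bases), it ran from 1197 to 1221 bases, a spread of 1.02 times. For Cd3e, with 1 coding transcript of 1462 bases among 4, it ran from 747 bases in MI 2 and 886 bases in Sham-E 3 to 1247 bases in MI 1, a spread of 1.67 times. As a result MI 2 had the lowest Cd3e level of MI in CPM (5.75) and the highest in TPM (8.93, against 5.56 in MI 1 and 5.48 in MI 3). For Cd3d the length was 956 bases in MI-E 3 and 1113 bases in Sham-E 2, and 1332 to 1356 bases in the other libraries. Lck, which has 8 annotated transcripts, ranged from 1247 bases in Sham 3 to 1792 bases in Sham 4, within a single group. The length was greater in every MI library than in every Sham library for Cd3g, Lat, Cd4, Cd3d and Cd8b1. Cd3g ran from 812 to 916 bases in MI and from 752 to 795 bases in all other libraries. Lat ran from 883 to 1005 bases in MI and from 801 to 843 bases in Sham. Cd4 ran from 2811 to 2845 bases in MI and from 2202 to 2556 bases in Sham. The gap was small for Cd3d (1353 to 1356 against 1332 to 1333 bases) and Cd8b1 (1219 to 1221 against 1197 to 1201 bases). The spread was 1.29 times for Cd4, 1.26 times for Lat, 1.22 times for Cd3g, 1.12 times for Tcf7 and 1.09 times for Cd8a.

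**Figure D5:**
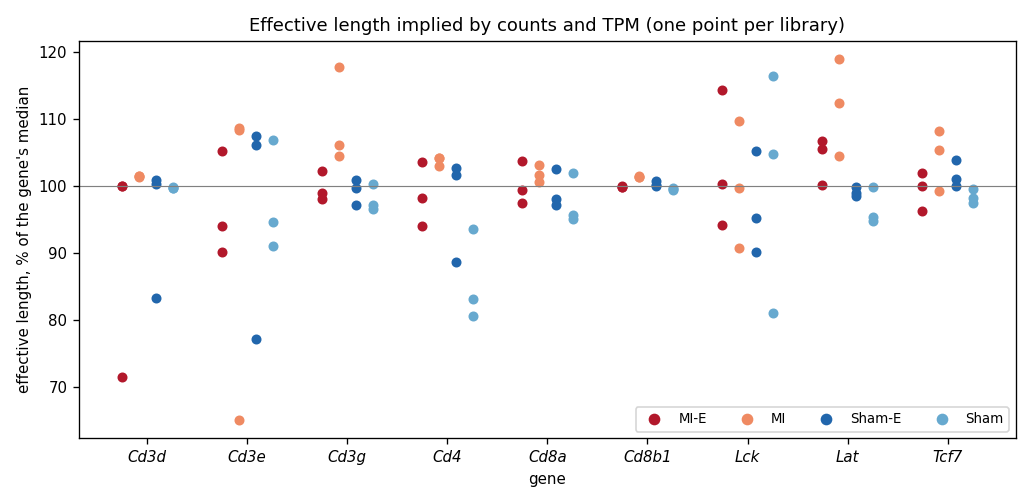
Effective length implied by the deposited counts and TPM for each member, drawn as % of that member's median length (y axis). Each library is 1 point, coloured by group. The lengths named here are in bases. Cd8b1, with 1 annotated transcript, stays within 1197 to 1221 bases, while Cd3e runs from 747 to 1247 bases and Lck from 1247 to 1792 bases.

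Other genes of the receptor pathway were read from fixed lists. Of all tested genes, 52.4% were higher in MI than in Sham and 47.6% were higher in MI-E than in MI. Of 4 measured receptor constant regions, 2 were higher in MI than in Sham and all 4 were higher in MI-E than in MI (median log2 fold change 0.38, against −0.02 over all genes), and edgeR called 0 in each of the 5 comparisons. Trac was at 0.50 ± 0.34 and Trbc1 at 0.46 ± 0.30 in MI-E against MI (edgeR adjusted p = 0.470 and 0.449). Of 28 tested genes of proximal receptor signalling, 14 were higher in MI than in Sham and 18 were higher in MI-E than in MI, with medians of 0.02 and 0.12, and edgeR called 0 in each of the 5 comparisons. Ptpn22, a phosphatase that acts on Lck, was at 1.45 ± 0.37 in MI against Sham (edgeR adjusted p = 0.082), with 77.6, 46.2 and 154.8 CPM in MI against 33.3, 33.6 and 35.0 CPM in Sham. These levels were above those of the T-cell marker Cd3e, which had 3.67 to 10.9 CPM over all libraries. The part of cells other than T cells in the Ptpn22 values was not tested.

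Of 20 T-cell surface and costimulatory genes, 9 were higher in MI than in Sham and 10 were higher in MI-E than in MI (medians −0.08 and 0.00), and edgeR called 0 in each comparison. Cd2, an adhesion receptor, had 15.1, 17.5 and 15.7 CPM in MI-E and 11.4, 7.98 and 6.96 in MI. It had 7.39, 18.3 and 19.2 CPM in Sham-E, and 16.0, 23.1 and 17.6 CPM in Sham. Like Lck, its MI libraries lay below all MI-E and Sham libraries, and Sham-E 1 was low (MI against Sham −1.10 ± 0.31, edgeR adjusted p = 0.101; MI-E against MI 0.87 ± 0.31, adjusted p = 0.192). The part of cells other than T cells in the Cd2 values was not tested. Cd6, a T-cell surface receptor, was at 0.84 ± 0.27 in MI-E against MI (edgeR adjusted p = 0.163). Ctla4, the inhibitory receptor, was at 2.51 ± 0.79 in MI against Sham (edgeR adjusted p = 0.117), with 5.53 CPM in MI 3 against 1.26 and 0.545 CPM in the other MI libraries.

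Of 20 tested transcription factors of the T lineage, 4 were higher in MI than in Sham and 16 lower (median −0.26), and 11 were higher in MI-E than in MI (median 0.11), with 0 called by edgeR in each comparison. Lef1, the close relative of Tcf7, was below 0 in MI against Sham, where Tcf7 was above it (−1.55 ± 0.39, edgeR adjusted p = 0.080). Lef1 is also a gene of early B-lineage cells, whose markers summed to 261 to 291 CPM in MI-E, 222 to 418 CPM in MI, 114 to 689 CPM in Sham-E and 597 to 852 CPM in Sham, and their part in the Lef1 values was not tested. Ikzf3 (−0.79 ± 0.20) and Id3 (−1.02 ± 0.25) were next in MI against Sham, at edgeR adjusted p of 0.074 and 0.072. Klf2, which keeps naive T cells recirculating, was at 1.15 ± 0.30 in MI-E against MI (edgeR adjusted p = 0.123). It had 254, 498 and 238 CPM in MI-E and 197, 139 and 111 CPM in MI. The T-cell marker Trac had 3.57 to 10.2 CPM over all libraries. The part of cells other than T cells in the Ikzf3, Id3 and Klf2 values was not tested. Of 17 genes of homing and survival of naive T cells, 9 were higher in MI than in Sham and 9 were higher in MI-E than in MI (medians 0.09 and 0.00), and edgeR called 1 between MI and Sham, where 0.417% of all genes were called. Il6ra, the interleukin-6 receptor, which neutrophils and monocytes also carry, rose in MI against Sham (0.79 ± 0.15, edgeR adjusted p = 0.047), with 184 to 195 CPM in MI and 96.9 to 119.6 CPM in Sham. Of 8 neutrophil markers, 7 were higher in MI than in Sham (median 0.34), with sums of 31752 to 57157 CPM in MI and 35595 to 38432 CPM in Sham, and their part in the Il6ra values was not tested.

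The genes that followed the members most closely over the 12 libraries were given by Pearson correlation of log2 CPM, as a description of libraries that share their makeup and depth. The mean of the 3 CD3 chains was followed first by Mirt2 (r = 0.92), a gene at a low level (mean log2 CPM −1.34). The class II genes Cd74 (0.90) and H2-Ab1 (0.88), Gimap3 (0.87) and Cd6 (0.86) came after it. Among the next 5 were Trbc2 (0.85) and H2-Eb1 (0.85). Cd8a was followed by Trac (0.89), Cd6 (0.89) and Rit1 (0.89), and Lck by Cd2, Them6 and Klf16 (0.94 each). The genes nearest to Tcf7 were Guk1, Rps19 and Itm2c (0.95 each), and those nearest to Lat were Eif3k (0.95), Hint2 (0.94) and Rpl24 (0.94), of which Rps19 and Rpl24 encode ribosomal proteins and Eif3k a translation factor subunit. Cd4 was followed by Klrk1 (0.93), a receptor of natural killer and T cells, Senp2 (0.91) and Cmpk2 (0.88). With the group means removed, the value for Rps19 with Tcf7 was 0.94, for Rpl24 with Lat 0.95 and for Klrk1 with Cd4 0.97.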

How the data were processed

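Bone marrow RNA was sequenced in 12 libraries, 3 for each of MI-E, MI, Sham-E and Sham, from total RNA (miRNeasy kit, per the labels). Per the submitters' processing notes, RSEM, STAR 2.4.0j and CASAVA 1.8 were used with mm10. Use of strand is not given in the sources used here. The authors deposited expected counts per gene, unscaled and whole in every value, and TPM values, which are scaled by length and to a common total. Column numbers were 2, 3 and 4 for MI-E and 1, 3 and 4 for Sham, so these columns were assigned to their group only, and libraries are named by column.

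Counts were filtered with filterByExpr of edgeR 4.0.16 (R 4.3.3; minimum count 10), scaled by TMM (factors 0.94 to 1.06), and tested with edgeR's robust quasi-likelihood test on all 12 libraries, with a mean per group and 8 residual degrees of freedom. P-values were adjusted by Benjamini-Hochberg across the 15119 genes tested, with a threshold of 0.05, and all tests are two-sided. Intervals cover 95% and are not adjusted. DESeq2 1.42.0 and limma 3.58.1 (voom on counts, trend on log2 of TPM plus 0.1 or 1) were alternatives. The edgeR fit was tested on simulated data for MI against Sham. It called, in the right direction, 36% of 50 genes set to 2 times and 40% of 50 set to 0.5 times. For genes set to 4 and 0.25 times it called 84% and 70%. Insert length came from single-transcript genes with at least 200 counts.

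The members, the gene lists and the rule for named list genes (up to 4 a list with the smallest p in any comparison, and every gene past the threshold) were chosen with earlier results of these data known. Positions and transcripts are from GENCODE M21, promoter windows from RefSeq GRCm38.p6. Trgc1, Trgc2, Trgc4 and Bcl11b were not analysed here. Some genes this rule named are not reported here.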

Additional observations from a re-analysis of the deposited data

How the results depend on the processing

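The 9 members were re-read in 5 comparisons under 23 alternatives, 12 of them leaving out 1 library each. Of 1026 such values, 964 kept their sign and side of the threshold, 2 newly passed it and 60 changed sign without passing. Genes called between MI and Sham (63) were 104 with the library total alone, 156 with no filter, 1066 with DESeq2, 269 and 282 by limma on TPM (pseudocount 0.1 and 1), 344 with the 2 groups alone, and 1 to 1224 with 1 library left out. Between MI-E and MI (1) they were 2, 33, 577, 67, 50 and 3 under these settings, 3 with a filter of 1 CPM, and 1 to 988 with 1 library left out. With DESeq2, 2 were called between Sham-E and Sham (0) and 212 between MI-E and Sham-E (0 to 117 with 1 library left out). The interaction (1) had 167 with DESeq2, 0 with limma-voom, 14 and 7 on TPM, and 1 to 150 with 1 library left out. Members called went from 0 to 1 for MI against Sham and for MI-E against MI with 1 library left out, Lck in both. The causes were not tested.

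Members' log2 fold changes that changed sign were, with the library total alone, Cd3d −0.0699, Cd4 −0.0826 and Cd8a −0.0263 for MI against Sham, and Cd3g −0.0561 for MI-E against Sham-E. On TPM (pseudocount 0.1, then 1) they were Cd3d −0.16 and −0.13, Cd4 −0.39 and −0.33, Cd8a −0.11 and −0.0916, Cd8b1 −0.0831 and −0.0658, and Lat −0.11 and −0.10 for MI against Sham, Cd4 −0.18 and −0.14 for Sham-E against Sham, and Cd3g −0.17 and −0.16 and Lck −0.0809 and −0.0803 for MI-E against Sham-E. Cd3g in the last comparison was −0.0046 with no filter and −0.0016 with the 2 groups alone. Leaving out 1 library gave, for MI against Sham, Cd3d −0.21 to 0.31, Cd3g −0.55 to 0.0734, Cd4 −0.11 to 0.24, Cd8a −0.10 to 0.27, Cd8b1 −0.32 to 0.44 and Lat −0.0166 to 0.65. It gave Lat −0.0194 to 0.64 for MI-E against MI, and Cd3d −0.11 to 0.34, Cd4 −0.19 to 0.46 and Lck −0.26 to 0.19 for Sham-E against Sham. For MI-E against Sham-E it gave Cd3e −0.30 to 0.18, Cd3g −0.18 to 0.26 and Lck −0.0812 to 0.37, and for the interaction Cd3g −0.0652 to 0.56 and Cd8b1 −0.16 to 0.60. No paired analysis was possible because the numbers on the Sham and MI-E columns differ from those in the sample titles and nothing ties them to a shared mouse, day or batch, so the replicate block was not fitted. Members had 60 to 636 counts a library, and SEs of 0.23 to 0.34 in the 4 comparisons other than the interaction limit what 3 libraries a group can show.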
